A study of Sus scrofa with 8 samples.

Results

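Stitched distal H3K27ac enhancer clusters in pig embryonic fibroblasts (PEFs) are described here. A cluster is a stretch of at least 40 kb in which many H3K27ac peaks away from gene starts follow each other closely. Members were selected on the H3K27ac peaks themselves. Peaks of replicate 1 on chromosomes 1 to 18 and X were kept where a replicate 2 peak overlapped them by at least 1 bp and where every annotated gene transcription start site (TSS) was over 2.5 kb away. Kept peaks were joined over gaps of up to about 12 kb, a distance in common use for this purpose, and joined regions of 40 kb or more were taken as clusters. Of 74448 replicate 1 peaks, 64325 (86.4%) had a partner and 50857 (68.3%) were also distal. Joining gave 23295 regions, of which 974 were clusters, 8853 were shorter regions of 2 or more peaks and 13468 were single distal peaks.

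The series comprised 8 ChIP-seq samples of untreated PEFs, with 2 replicates each of H3K4me3, H3K27ac and CTCF, for which peak lists were analysed, and 2 input samples, for which none was. The cells came from Large White fetuses of 35 days, with no gene altered and no agent added in any sample, and were cultured for 24 h. The sources used here do not give the number of fetuses or say whether they were pooled, and nothing says that replicates are separate cultures, so the spread between replicates may be technical. There is 1 condition, so no group of samples can be set against another, and with 2 replicates a mark the smallest exact two-sided permutation p would be 0.333. Values are therefore given per replicate or as mean ± SD, with no test. The lists of chromosomes 1 to 18 and X held 74448 and 80531 H3K27ac, 37495 and 43075 H3K4me3, and 39854 and 44209 CTCF peaks in replicates 1 and 2, and the read depth behind a peak is unknown. All 13 fibroblast markers, COL1A1, COL3A1, VIM, PDGFRA and TWIST1 among them, had H3K4me3 and H3K27ac within 1 kb of the TSS in both replicates. Of 11 markers of endothelial, blood, epithelial, muscle, glial and liver cells, 5 had H3K4me3 (MYOD1, MYF5, EPCAM, KRT8 and CDH1), SPI1 had H3K27ac, and none had both marks. Most genes carry these marks, with H3K4me3 at 68.9% and H3K27ac at 60.7% of all coding genes in both replicates, so the check rests mainly on the markers that lack them.

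H3K27ac, acetylation of lysine 27 of histone H3, marks active promoters and enhancers, the stretches of DNA that bind transcription factors and raise transcription of a gene at a distance. Enhancers that lie close together are often described as 1 unit by joining their peaks, and long, strongly acetylated units (super-enhancers) are known to lie near genes that define a cell type. CTCF is a zinc finger protein whose sites have a direction. Chromatin loops formed with cohesin tend to have a pair of CTCF sites that point towards each other, and such loops can limit which genes an enhancer reaches. Fibroblasts are the cells that make and tension the collagen matrix, and transforming growth factor beta (TGF-beta), YAP-TEAD and AP-1 factors are known regulators of their genes.

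Sequences are shown first from the CTCF sites at the edges of clusters, since the direction of these sites is described later. They are the 4 longest clusters with a CTCF motif within 5 kb of each edge under a peak of both CTCF replicates. Each line gives the 19 bases matched by the motif in capitals with 10 bases on either side, read along the strand on which the motif runs forward, and the positions are those of the whole line in Sscrofa11.1. The motif learned from the CTCF peaks of odd-numbered autosomes had the consensus TGGCCACTAGAGGGCGCTA.
NOTCH2 cluster, left edge, chr4:100964786-100964824, plus strand: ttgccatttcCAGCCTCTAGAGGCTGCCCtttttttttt
NOTCH2 cluster, right edge, chr4:101113023-101113061, minus strand: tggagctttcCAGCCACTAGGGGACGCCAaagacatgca
ATG7 cluster, left edge, chr13:67419861-67419899, plus strand: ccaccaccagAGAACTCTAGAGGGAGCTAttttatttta
ATG7 cluster, right edge, chr13:67516996-67517034, plus strand: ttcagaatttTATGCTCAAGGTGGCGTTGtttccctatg
FURIN cluster, left edge, chr7:53377008-53377046, minus strand: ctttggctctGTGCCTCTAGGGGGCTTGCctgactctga
FURIN cluster, right edge, chr7:53475422-53475460, minus strand: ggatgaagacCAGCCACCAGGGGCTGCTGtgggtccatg
CCNI cluster, left edge, chr8:72587401-72587439, minus strand: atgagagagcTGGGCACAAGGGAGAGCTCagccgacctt
CCNI cluster, right edge, chr8:72683505-72683543, minus strand: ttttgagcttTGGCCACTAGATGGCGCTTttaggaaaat
At the NOTCH2 cluster both motifs point into the cluster, and the peaks over them had a fold enrichment of 11.8 and 9.54 at the left edge and of 37.9 and 56.6 at the right edge in CTCF replicates 1 and 2. At the other three both motifs lie on the same strand, so that the motif at 1 edge points into the cluster and that at the other away from it.

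The second set is the DNA under the strongest joined peak of the 5 longest clusters, as 200 bases centred on its summit in replicate 1, plus strand. Capitals mark matches to 6 short motifs of factors known in fibroblasts, which are counted over all clusters at the end.
ITGB6 cluster, chr15:67339940-67340139: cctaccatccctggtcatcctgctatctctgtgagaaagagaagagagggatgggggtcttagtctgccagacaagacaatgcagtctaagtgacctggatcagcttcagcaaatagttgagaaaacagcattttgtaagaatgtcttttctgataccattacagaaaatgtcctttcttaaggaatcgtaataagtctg
FNDC3B cluster, chr13:110728776-110728975: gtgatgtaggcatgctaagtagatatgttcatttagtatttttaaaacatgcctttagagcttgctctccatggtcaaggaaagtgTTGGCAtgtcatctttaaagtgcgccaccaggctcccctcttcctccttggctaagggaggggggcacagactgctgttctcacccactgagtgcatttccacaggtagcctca
FN1 cluster, chr15:117884781-117884980: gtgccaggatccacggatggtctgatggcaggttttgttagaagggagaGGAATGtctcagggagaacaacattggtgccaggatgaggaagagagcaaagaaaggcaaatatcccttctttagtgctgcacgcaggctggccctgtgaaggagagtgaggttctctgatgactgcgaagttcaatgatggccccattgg
COL3A1 cluster, chr15:93758288-93758487: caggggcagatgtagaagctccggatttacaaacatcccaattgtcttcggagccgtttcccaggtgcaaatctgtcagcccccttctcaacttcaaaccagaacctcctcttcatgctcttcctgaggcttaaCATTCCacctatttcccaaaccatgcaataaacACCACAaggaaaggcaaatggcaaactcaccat
MYC cluster, chr4:12316348-12316547: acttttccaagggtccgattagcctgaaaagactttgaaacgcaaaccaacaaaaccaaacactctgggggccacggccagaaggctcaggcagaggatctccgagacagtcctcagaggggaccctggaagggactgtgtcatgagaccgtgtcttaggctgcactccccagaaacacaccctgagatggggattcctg
The windows of the FN1 and COL3A1 clusters each hold a TEAD match, that of COL3A1 also a RUNX match, and that of FNDC3B an NFI match. Those of the ITGB6 and MYC clusters hold none of the 6, and AP-1 is found in none of the 5. The ITGB6 window lies in the body of RBMS1, the FNDC3B window in FNDC3B, the COL3A1 window in COL5A2, the MYC window in a gene without a symbol and the FN1 window outside annotated genes.

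Clusters were of modest length with a long tail. Their length ranged from 40 to 299.5 kb with a median of 56.2 kb, and 102 clusters reached 100 kb and 10 reached 200 kb. A cluster joined between 3 and 57 peaks of replicate 1, with a median of 10 and quartiles of 7 and 13, and held between 3 and 67 partner peaks of replicate 2, also with a median of 10. In all they joined 10818 peaks, 21.3% of the distal peaks, in 64.7 Mb or 2.70% of these chromosomes. Joined peaks covered 39.8% of the cluster length in replicate 1 and 39.1% in replicate 2 at the median, with a range of 12.9% to 98.0% and of 9.25% to 98.6%. Length and number of peaks rose together across the clusters (Spearman's rho of 0.797), as the joining rule makes them do.

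**Figure D1:**
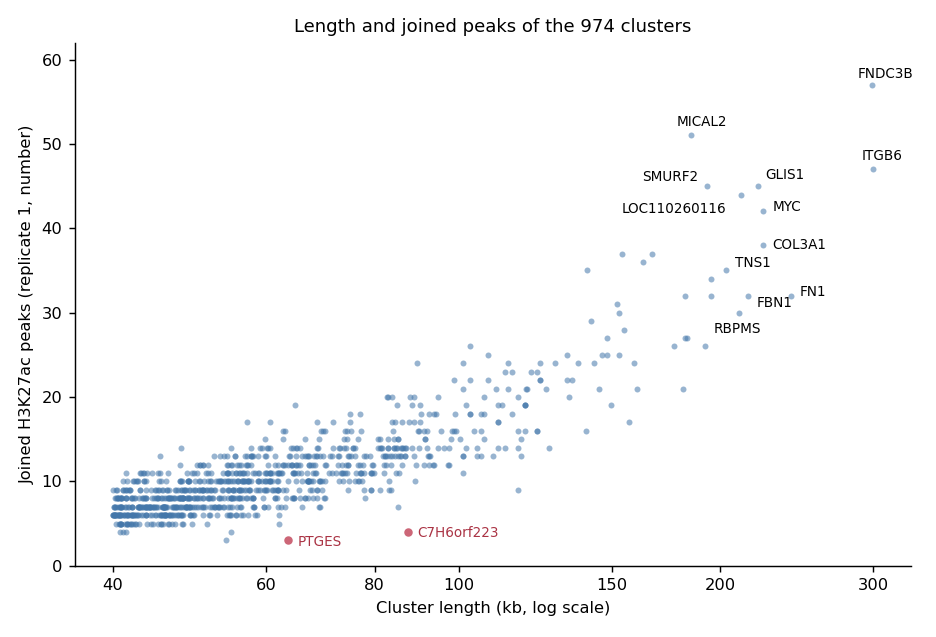
Each point is 1 of the 974 clusters, with its length in kb on a log scale against the number of joined H3K27ac peaks of replicate 1. The longest clusters and those with the most peaks are named by their nearest coding gene, and the PTGES and C7H6orf223 clusters (red) join 3 and 4 peaks in 63.6 and 87.4 kb.

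Joined peaks of clusters were wider than other distal peaks, with a similar median enrichment and a higher upper tail. Their median width was 1604 bp, compared with 1321 bp in shorter joined regions and 1178 bp for single peaks, and their median fold enrichment over the control was 4.94, compared with 4.85 and 4.82. The 90th percentile of fold enrichment was 16.2 in clusters, 13.3 in shorter regions and 11.4 for single peaks. Of the 445 distal peaks of 10 kb or more, 311 (69.9%) lay in clusters. These are values that chose the members, since a wide peak brings a region nearer to 40 kb. The strongest peak of a cluster had a median fold enrichment of 19.9 in replicate 1 and 21.3 in replicate 2, with ranges of 4.12 to 61.2 and 3.92 to 58.1. It lay within 20% of the length from either edge in 392 clusters (40.2%).

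The 2 longest clusters were of nearly the same length. The cluster at chr15:67099535-67399080 spanned 299.5 kb over the bodies of ITGB6, an integrin subunit that activates latent TGF-beta, and RBMS1, a nucleic acid binding protein, and joined 47 peaks with 67 partners in replicate 2. Its strongest peak, 30.2 kb wide, lay inside RBMS1 with a fold enrichment of 30 and 32.3. The cluster at chr13:110596086-110895146, of 299.0 kb, lay within FNDC3B, a membrane protein with fibronectin type III domains, and joined 57 peaks, the most of any cluster, with 67 partners. Its strongest peak was weaker, at 20.8 and 19.7. The strongest peak of the ITGB6 cluster was above the upper quartile over clusters (26.4 and 29.1), and that of the FNDC3B cluster was near the median in replicate 1 and below it in replicate 2.

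Genes of the collagen matrix lay nearest to 3 of the 10 longest clusters. Among all 974 clusters, 17 were nearest to a gene of the same list of collagens and matrix proteins, which was chosen with results of these data known. The cluster at chr15:117873270-118114620, of 241 kb and 32 joined peaks, overlapped no coding gene, and its nearest coding TSS, 136 kb away, was that of FN1, fibronectin. It held a strong peak of 42.6 and 40.2 fold enrichment near its left edge. A second cluster, of 72.9 kb and 14 peaks, lay 19.6 kb from the same TSS over the bodies of FN1 and ATIC. The cluster at chr15:93593379-93817682, of 224 kb and 38 peaks, lay over COL3A1 and COL5A2, a pair of fibrillar collagen chains, with a strongest peak of 42.5 and 41.9. The cluster of FBN1, the microfibril protein fibrillin, at chr1:123150677-123365851, was sparser. Its 32 joined peaks covered 34.1% and 33.4% of 215 kb, and the strongest reached only 15.1 and 20.1.

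Next in length to the COL3A1 cluster, the cluster at chr4:12190310-12414419, of 224 kb and 42 peaks, lay in a stretch without coding gene bodies 45.9 kb from MYC, a transcription factor of cell growth, with a strongest peak of 25.3 and 32.5. The GLIS1 cluster, at a zinc finger factor gene, joined 45 peaks in 221 kb (41.9 and 28.5), and the cluster of TNS1, a tensin of focal adhesions, joined 35 in 203 kb (28.1 and 36.6). RBPMS, an RNA binding protein, had 30 peaks in 210 kb (35.6 and 34.9), and LOC110260116, a coding gene without a symbol, was 154 kb from a cluster of 44 peaks in 211 kb (20 and 28.9). With them, MICAL2, an actin-oxidising enzyme, joined 51 peaks in 185 kb, and SMURF2, a ubiquitin ligase of the SMAD pathway, joined 45 in 193 kb.

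**Figure D2:**
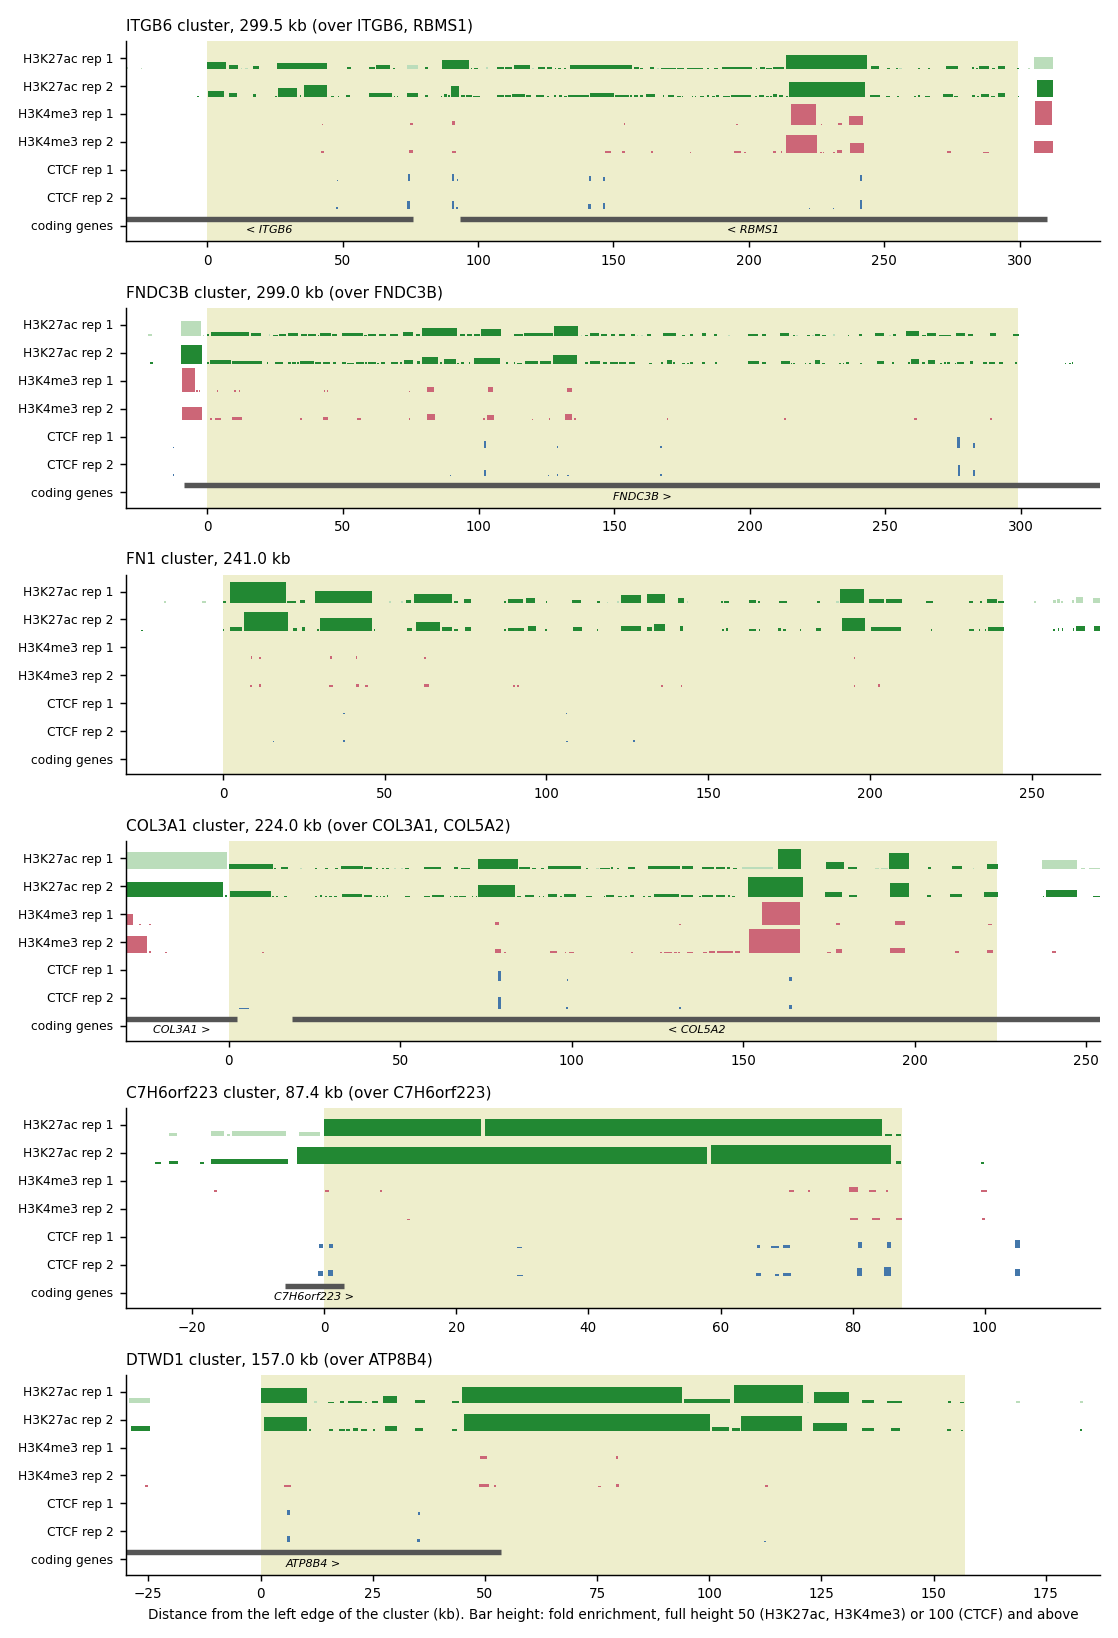
Peaks of the 4 longest clusters and of the C7H6orf223 and DTWD1 clusters, drawn by distance in kb from the left edge with 30 kb on either side; the shaded part is the cluster, bar height is fold enrichment with full height at 50 (H3K27ac, H3K4me3) or 100 (CTCF), and replicate 1 H3K27ac peaks that were not joined are light green. The ITGB6 and FNDC3B clusters are rows of many separate peaks, whereas nearly all of the C7H6orf223 cluster is a pair of wide peaks in replicate 1.

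Ranking by the summed product of fold enrichment and peak width gave a partly different top. The product takes a single fold enrichment value per peak over its full width, so it favours wide peaks and does not measure total acetylation. Replicate 2 partners count with their full width, also where they reach beyond a cluster. ITGB6 was the only member of both the 10 longest and the 10 highest by mean rank. The highest was the 87.4 kb cluster at chr7:38999391-39086755 beside C7H6orf223, an uncharacterised gene, with summed values of 2965 in replicate 1 and 3281 in replicate 2 (fold enrichment times kb). Its joined peaks covered 98.0% and 98.6% of the length. The DTWD1 cluster at chr1:121861074-122017884, 121 kb from the TSS of DTWD1 and over the body of ATP8B4, followed with 2960.3 and 2863. The PTGES cluster at chr1:269873169-269936755 had 2369.7 and 3384. PTGES makes prostaglandin E2, and this cluster also overlaps PRRX2, a homeobox gene of mesenchyme. At the median over all clusters the summed value was 271 and 284, so these 3 lay far above it in both replicates.

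The rest of the 10 highest were the clusters of CALD1, the actin-binding caldesmon (2563 and 3054), PDGFC, a ligand of platelet-derived growth factor receptors (2615 and 2031), IL6, the cytokine interleukin 6 (2265 and 2201), and ARID5B, a DNA binding protein of chromatin (2182 and 1918). The ITGB6 cluster had 2156 and 2076, the ISCA2 cluster, which overlaps the matrix gene LTBP2, had 2046 and 2032, and the ERGIC1 cluster had 1708 and 2433. In 5 clusters a single replicate 1 peak was itself 40 kb or wider. These were the clusters of C7H6orf223 (60 kb), ISCA2 (49.4 kb), DTWD1 (49.0 kb), IL6 (46.2 kb) and PTGES (45.9 kb), and all 5 are among the 10 highest. In replicate 2 the widest partner was 62.1, 49.5, 54.8, 24.3 and 52.3 kb, so that only the IL6 peak had no partner of similar width.

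**Figure D3:**
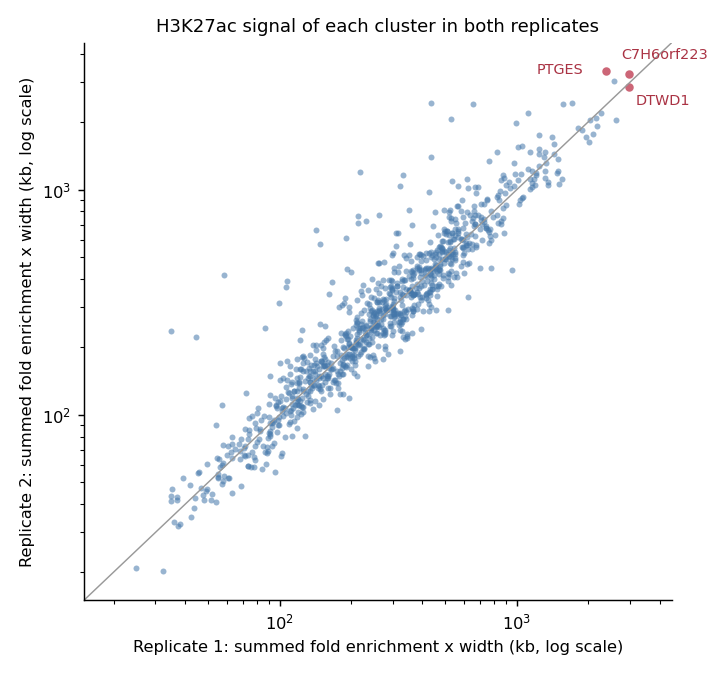
Summed fold enrichment times width (kb) of each of the 974 clusters in replicate 1 against replicate 2, on log axes with the line of equal values. The values follow the line with a Spearman's rho of 0.936, and the 19 points at least 3 times above it are clusters with a replicate 2 partner that also overlaps a peak left out of the cluster.

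Replicate 2 peaks joined by the same rule gave 980 clusters of 55.8 kb and 10 peaks at the median. Of the 974, 913 (93.7%) overlapped one of these, and 911 (93.5%) did so with at least 50% of their length. The 61 without a counterpart were short, with a median of 46.4 kb, and none of them reached 100 kb. Both replicates entered the choice of peaks in each set, so the overlap is a description and no independent check. Summed enrichment was correlated between the replicates across clusters, with a rho of 0.936. It was at least 3 times higher in replicate 2 in 19 clusters and in replicate 1 in none. In all 19, a replicate 2 partner also overlapped a replicate 1 peak that was left out, as was the case in 92 of all 974 clusters. The MYH9 cluster, with 437 and 2436, is an example.

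Regions at the limit of 40 kb did not stand apart from each other. Just inside were regions nearest to KIAA1217, PODXL and ENPP1, each of 40.01 kb with 6, 9 and 6 peaks. Just outside were regions nearest to DICER1 (2 bp short of 40 kb, 6 peaks) and CDK2AP1 (39.92 kb, 5 peaks). The PODXL cluster had the lowest rank by summed enrichment of all, with 32.3 and 20.2. Edges were also set by the distance rule. Outside 797 of the 1948 cluster edges (40.9%), another replicate 1 H3K27ac peak, which was near a TSS or had no partner, lay within about 12 kb, compared with 28% of the edges of shorter regions and 19.3% of those of single peaks.

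Clusters were spread over all 19 chromosomes, with between 21.5 per 100 Mb on chromosome 11 and 64.9 on chromosome 10 among autosomes. Chromosome 12, which has the most coding genes per Mb (18.2), had 61.7 per 100 Mb, whereas chromosome 10, with 5.80 coding genes per Mb, was not gene-rich. On chromosome X there were 6 clusters, 4.76 per 100 Mb, nearest to ZFX, MSN (the membrane linker moesin), CXHXorf36, LOC100156694 and, for 2 of them, ACSL4, a fatty acid ligase (genes named after their values were seen).

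Most joined peaks lay in introns. Of the 10818 summits, 7686 (71.0%) were in an intron, 2691 (24.9%) outside genes and 441 (4.08%) in an exon, compared with 61.2%, 33.1% and 5.72% in shorter regions and 56.4%, 36.8% and 6.79% for single peaks. A coding gene body was overlapped by 746 clusters (76.6%), and 135 (13.9%) contained a coding TSS in a gap between joined peaks. The nearest coding TSS was 21.3 kb away at the median, compared with 36.4 kb for shorter regions and 48.1 kb for single peaks. A longer region is nearer to any point by its length alone, which was not adjusted for. At the other end, 212 clusters (21.8%) lay over 100 kb and 12 over 500 kb from any coding TSS, such as one of 182 kb and 27 peaks 584 kb from NAV3 and one of 89.8 kb and 16 peaks 863 kb from ROBO1, both genes of neuronal guidance.

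The 852 genes nearest to a cluster often carried promoter marks, while their expression was not examined. H3K4me3, a mark of promoters, was within 1 kb of the TSS in both replicates for 692 of them (81.2%), against 68.9% of all 19487 coding genes. The share was 80.4% for the nearest genes of shorter regions and 76.6% for those of single peaks, so clusters did not stand apart from shorter regions. H3K27ac was at the TSS of 711 of them (83.5%) in both replicates, against 60.7% of all coding genes, 76.1% for shorter regions and 68.8% for single peaks, though these come from the libraries that chose the clusters. The nearest genes were long. Their median length was 69.4 kb, compared with 20.7 kb for all coding genes and 26.9 kb for those with H3K4me3 in both replicates, and the part of gene length in the values on genes was not tested.

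Some genes were nearest to several clusters. Of the 852 genes, 87 had 2 clusters, 12 had 3, MYC and PAPPA had 4 and CITED2 had 6. The clusters of CITED2, a co-regulator that binds the acetyltransferases CBP and p300, lay between 137 and 962 kb from its TSS on chromosome 1, with 45 joined peaks in 304 kb in all, and 4 of them were over 500 kb away. The MYC clusters, with 64 peaks in 347 kb, reached from 45.9 to 409.7 kb from the TSS. After the 224 kb cluster came 3 of about 40 kb each, with a strongest peak of 32.5 and 23.7, 16.2 and 27.8, and 39.9 and 34.9 in replicates 1 and 2. PAPPA, a protease that frees insulin-like growth factors, had 53 peaks in 302 kb between 8.35 and 291 kb from the TSS. Genes with 3 clusters included HMGA2 (a chromatin protein), EPAS1 (a factor of the hypoxia response), KLF7, AHR (a ligand-activated factor), and ZFP36L1 and ZFP36L2, a pair of proteins of mRNA decay. These genes were named after their counts were seen.

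**Figure D4:**
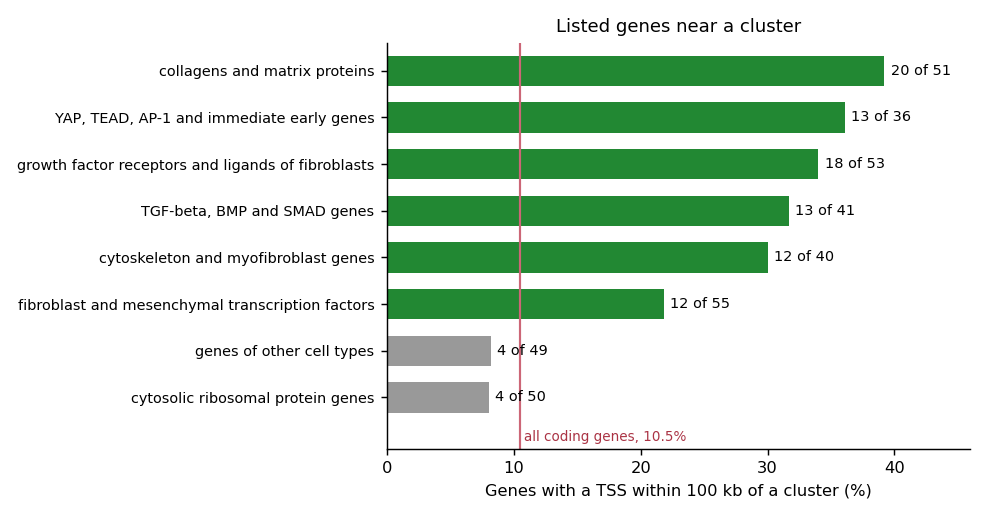
Share of the annotated genes of each list with a TSS within 100 kb of a cluster, with the number of genes beside each bar and the value of all coding genes (10.5%) as a red line. The 6 fibroblast lists (green) lie between 21.8% and 39.2%, and the lists of other cell types and ribosomal proteins (grey) at 8.16% and 8.0%.

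Listed genes were then counted within 100 kb of a cluster, where 10.5% of all coding genes and 12.1% of those with H3K4me3 in both replicates had their TSS. In the 6 fibroblast lists, 88 of 276 different genes did (31.9%). Genes of other cell types (4 of 49) and of cytosolic ribosomal proteins (4 of 50) were at 8.16% and 8.0%. The counts are descriptions, since the lists were chosen with results of these data known, listed genes can share a cluster (DCN and LUM, IER3 and DDR1, PDLIM5 and BMPR1B, NFIX and IER2), and long genes were nearer to clusters.

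Collagens and matrix proteins had the highest share, 20 of 51 (39.2%). Collagen genes among them were COL1A2, 9.11 kb from a cluster of 6 peaks whose strongest reached 30.3 and 40.5, COL3A1, COL5A1, COL12A1, COL14A1, COL15A1, COL16A1, COL18A1, COL6A3 and COL8A1. The COL15A1 cluster was covered to 74.4% and 73.5% of its 53.3 kb. LUM and DCN, small proteoglycans that bind collagen fibrils, shared a cluster of 68.7 kb with 9 peaks, in which the TSS of LUM lies. The enzymes LOX and LOXL2, which crosslink collagen, lay 41.2 and 22.3 kb from a cluster, and the strongest peak of the LOXL2 cluster reached 46.5 and 50.1. NID1, LAMA4, LAMB1, FBN1, FN1 and LTBP2 were the other members. COL1A1, the partner chain of COL1A2, was not within 100 kb of a cluster, though its TSS carried both marks.

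Genes of the TGF-beta and SMAD pathway numbered 13 of 41 (31.7%). The receptor gene TGFBR2 had a cluster of 83.7 kb at 7.28 kb and a second of 67.9 kb at 42.9 kb, with strongest peaks of 25.5 and 15.3 and of 20.1 and 27.2. SMAD3, an effector of the pathway, lay 6.82 kb from a cluster of 137 kb and 24 peaks (24.1 and 26.4). The inhibitors SMAD7 and SMAD6 lay 6.92 and 16.2 kb from clusters of 56.9 and 74.9 kb. SMURF2, SKI, SKIL and TGIF1, which restrain the pathway, the ligand TGFB2, the receptors TGFBR1, BMPR1B and ENG, and SMAD2 complete the count.

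In the list of YAP, TEAD, AP-1 and immediate early genes, 13 of 36 (36.1%) lay within 100 kb. YAP1 and WWTR1, the co-activators of TEAD factors, lay 10.5 and 36.5 kb from clusters of 126 and 51.8 kb, of which that of YAP1 joined 21 peaks over 72.0% and 68.3% of its length. TEAD1 had clusters of 71.5 and 69.3 kb, at 8.58 and 94.9 kb from the TSS and both inside the gene. Of the AP-1 subunits listed, JUND lay in a gap of a cluster of 44.4 kb. MYC, SRF, CEBPB, CEBPD, EGR3, IER2, IER3, MAFF and AMOTL2 were the others.

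Receptors and ligands of fibroblasts numbered 18 of 53 (34.0%). Among them were EGFR (2.76 kb from a cluster of 106 kb), ROR2 (19.2 kb; 133 kb), IGF1R (7.84 kb; 47.1 kb), IGF2R (3.33 kb; 72.8 kb), KITLG (9.55 kb; 82.8 kb) and FGF7, a ligand of epithelial receptors, whose cluster of 57.2 kb was covered to 89.8% and 78.2%. The NOTCH2 cluster, whose edge sequences are shown above, joined 25 peaks in 146 kb with a strongest peak of 39 and 37.1, and NOTCH2 itself had neither mark within 1 kb of its annotated TSS in both replicates. Cytoskeletal genes numbered 12 of 40 (30%), among them CALD1, PDLIM5 (36 peaks in 163 kb), ACTN1, VCL, MYH9, TPM1, VIM, LPP, SYNPO2, ACTG1 and DSTN.

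Fibroblast and mesenchymal transcription factors had the lowest share of the 6, 12 of 55 (21.8%). They were TCF4, PRRX2, NFIX, TBX15, HIC1, EBF2, TCF7L2, ZEB2, MSX2, ID1, SNAI1 and GLI3. TCF7L2, a factor of the WNT pathway, lay 27 kb from a cluster of 123 kb and 23 peaks (24.7 and 29), and SNAI1, a repressor of epithelial genes, 9.39 kb from one of 77.0 kb and 12 peaks (20.4 and 25.8). Several others were nearest to a cluster from farther away, such as TWIST1 (227 and 318 kb, in the gene HDAC9), KLF6 (211 kb, 21 peaks in 114 kb), FOXC1 (139.9 kb) and FOXP1 (563 kb). PRRX1 and the HOX partners MEIS1 and MEIS2 had no cluster within 100 kb. Among genes of other cell types, CDH5 and PTPRC, of endothelium and blood, were nearest to a cluster at 144 and 123 kb, and those within 100 kb were EPCAM, APOA1, TNNT2 and 1 of the 2 annotated copies of NANOG.

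CTCF was then examined at the edges of clusters. A CTCF summit lay within 5 kb of 480 of the 1948 edges (24.6%) in CTCF replicate 1 and of 548 (28.1%) in replicate 2, or 26.4% ± 2.47 (SD, n = 2). The share was 26.6% ± 1.98 for the edges of shorter joined regions and 25.8% ± 1.76 for those of single peaks. All 3 kinds were higher in CTCF replicate 2, so this spread does not measure a difference between kinds. Within replicate 1 the shares were 24.6% for clusters, 25.2% for shorter regions and 24.6% for single peaks. Within replicate 2 clusters were at 28.1% and single peaks at 27.1%, with shorter regions between them. Whether the kinds differ was not tested. Among all 10 kb bins of the genome, which are as long as the window at an edge, 14.6% and 16.2% held a CTCF summit in replicates 1 and 2. In this window, edges of clusters were thus above the genome and close to the edges of other distal H3K27ac regions. With a window of 10 kb the shares were 43.2% for clusters, 41.3% for shorter regions and 37.7% for single peaks, and with H3K27ac replicate 1 left out they were 28.3%, 26.4% and 25.7% at 5 kb. The gap between clusters and single peaks was then wider than in the main setting. The SD of 2.47 is that of the 974 clusters at 5 kb, and the spread between CTCF replicates at these other settings was not computed. CTCF was at both edges of 57 clusters (5.85%) in replicate 1 and 83 (8.52%) in replicate 2, and at neither edge of 551 (56.6%) and 509 (52.3%). Both edges had it in 10.4% and 12.1% of shorter regions and in 22.6% and 25% of single peaks. A single summit can serve both edges where these lie within 10 kb, as in single peaks and also in the shortest joined regions. Neither edge had it in 60% and 56.1% of shorter regions and in 73.5% and 70.8% of single peaks. Both edges had CTCF in both replicates in 52 of the 974 clusters, 876 of the 8853 shorter regions and 2953 of the 13468 single peaks.

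**Figure D5:**
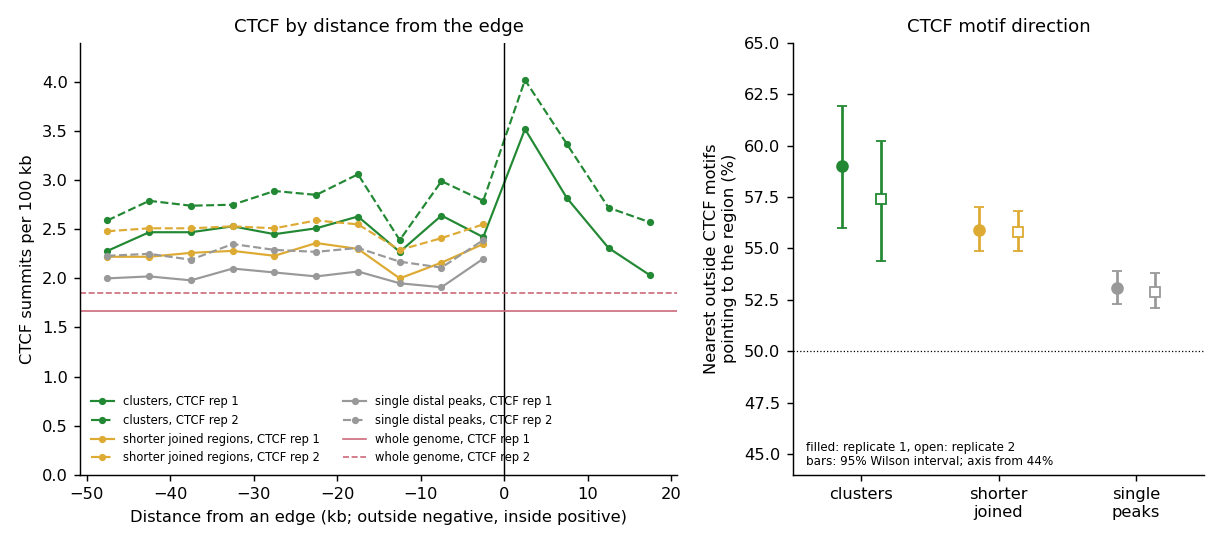
Left, CTCF summits per 100 kb in bins of 5 kb by distance from an edge, for clusters, shorter joined regions and single distal peaks, with the genome value of each CTCF replicate in red. Right, share of nearest outside CTCF motifs that point to the region, with 95% Wilson intervals on an axis from 44%: clusters are at 59.0% and 57.4%, shorter regions at 55.9% and 55.8% and single peaks at 53.1% and 52.9%.

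The profile by distance showed where CTCF lay. From 50 kb outside up to the edge, its density was between 2.27 and 2.64 summits per 100 kb in replicate 1 and between 2.39 and 3.06 in replicate 2, with no rise towards the edge, compared with 1.67 and 1.85 over the genome. It was highest in the 5 kb just inside, at 3.52 and 4.02, and fell to 2.03 and 2.57 at 15 to 20 kb inside. A cluster begins and ends with an H3K27ac peak by its making. CTCF summits inside clusters were denser in joined peaks, at 3.64 and 4.46 per 100 kb, than in the gaps between them, at 1.47 and 1.72. Over the whole of the clusters the density was 2.65 ± 0.346 (SD, n = 2) per 100 kb, and 255 clusters (26.2%) in replicate 1 and 191 (19.6%) in replicate 2 held no CTCF summit. Shorter regions had 3.12 and 3.56 summits per 100 kb and single peaks 6.36 and 7.29, while 67.4% and 63.6% of shorter regions and 90.9% and 89.6% of single peaks held none. The TNS1 cluster held 11 and 12, the most of any cluster, the ITGB6 cluster 7 and 9, and the CALD1 cluster 1 and 1. CTCF peaks inside clusters were weaker than CTCF peaks in general, with a median fold enrichment of 16.0 and 13.6 against 19.7 and 19.2. The same value was not computed for shorter regions and single peaks, so it cannot be called particular to clusters.

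The direction of CTCF motifs was read from the CTCF peak nearest outside each edge, within 50 kb. The motif was found within 100 bp of the summit in 88.6% and 87.0% of the CTCF peaks of even-numbered autosomes, which had not been used to learn it, and in 10.8% and 10.6% of windows 2 kb away. A motif could be read outside 1055 and 1107 cluster edges. It pointed to the cluster in 622 (59.0%, 95% Wilson interval 56.0% to 61.9%) and 635 (57.4%, 54.4% to 60.2%). At shorter regions the share was 55.9% (54.9% to 57.0%) and 55.8% (54.9% to 56.8%), and at single peaks 53.1% (52.3% to 53.9%) and 52.9% (52.1% to 53.8%). The intervals cover counting error only and take edges as independent, which neighbouring edges that share a CTCF peak are not.

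Pairs showed the same order. Of the 301 and 316 clusters with a motif outside both edges, both motifs pointed to the cluster in 99 (32.9%, 27.8% to 38.4%) and 109 (34.5%, 29.5% to 39.9%), and both pointed away in 52 (17.3%) and 58 (18.4%). At single peaks these shares were 24.4% and 24.8% for both pointing in and 24.6% and 23.9% for both pointing away. Shorter regions were between them, with 29.5% and 29.1% pointing in and 22.2% and 21.2% pointing away. In both CTCF replicates the share pointing in was highest for clusters and lowest for single peaks. For single motifs the shares were 58.2% ± 1.13 for clusters, 55.9% ± 0.0713 for shorter regions and 53.0% ± 0.113 for single peaks (SD, n = 2). A spread from 2 values is itself uncertain. The same edges were read in both CTCF replicates, so this spread does not measure a difference between kinds of region. The intervals of clusters and shorter regions overlapped, and they take regions as replicates, which these are not. Whether clusters differ from shorter regions was not tested. Outside the NOTCH2 cluster, the left motif shown above is such an inward one.

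H3K4me3 was found in nearly all clusters, but weakly. An H3K4me3 peak overlapped 896 clusters (92.0%) in H3K4me3 replicate 1 and 942 (96.7%) in replicate 2. The shares were 56.5% and 68.1% for shorter regions and 45.0% and 54.3% for all 23295 joined regions and single peaks, and long regions have more room for one. Counted per joined peak the order was the opposite. H3K4me3 overlapped 27% ± 4.28 (SD, n = 2) of the joined peaks of clusters, 30.4% ± 5.33 of those of shorter regions and 38.1% ± 5.78 of single peaks. The overlapping H3K4me3 peaks had a median fold enrichment of 4.86 and 4.35 in clusters. It was 5.29 and 4.64 in shorter regions and 6.47 and 5.34 at single peaks, so weak H3K4me3 was not particular to clusters. Leaving out H3K4me3 peaks within 2.5 kb of a TSS, 885 (90.9%) and 938 (96.3%) of the clusters still held one. These distal H3K4me3 peaks had a median fold enrichment of 4.8 and 4.29, against 49.4 and 23.9 for H3K4me3 peaks at a TSS. Only 75 of 3099 (2.42%) and 95 of 3848 (2.47%) reached the median of those at a TSS. This share was not computed for shorter regions or single peaks. Whether any of these distal H3K4me3 peaks are promoters missing from the annotation was not tested.

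Short motifs were last counted in the 200 bp windows at the summits of joined peaks, on both strands. AP-1 (TGANTCA) matched 848 of 10818 windows (7.84%), compared with 7.85% in shorter regions, 8.67% at single peaks, 3.10% at H3K27ac peaks within 2.5 kb of a TSS and 6.88% of 200 bp tiles taken every 10 kb over the genome. TEAD (GGAATG) matched 10.6%, against 11%, 10.8%, 8.19% and 10.3%, and NFI (TTGGCA) 10.7%, against 11%, 10.8%, 6.82% and 10.1%. RUNX (TGTGGT) was at 16.7% and PBX-HOX (TGATTNAT) at 3.02%, both below the genome tiles (18.5% and 4.23%). ETS (CCGGAAGT) was at 0.222%, above the genome tiles (0.114%) and below the 0.761% at a TSS. In each of the 6 the share in clusters was close to that in shorter regions. Windows differed in base composition, with 47.5% G and C in clusters, 60.2% at a TSS and 41.8% in the tiles, and the part of this in the shares was not tested.

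Within clusters the AP-1 matches were scattered. At least 1 summit with a match was present in 548 clusters (56.3%), and none in 426. This count rises with the number of summits in a cluster, and no such share was computed for other regions or windows. The strongest peak of a cluster held one in 7.70% of clusters, near the 7.85% of the other joined peaks. In 4 groups of nearly equal size by fold enrichment the share was 8.28%, 8.85%, 7.54% and 6.69% from the weakest to the strongest joined peaks, and for TEAD it was 11%, 10.7%, 11% and 9.72%, with no rise with enrichment. At replicate 2 summits of the same peaks AP-1 was at 6.85%. In windows 1 kb to the right of the summits it was at 6.44%. The summit of a wide H3K27ac peak marks the highest acetylation and need not be where factors bind.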

How the data were processed

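Peak lists of ChIP-seq for H3K4me3, H3K27ac and CTCF in PEFs were analysed, with 2 replicates each, and the 2 input samples were not used. Per the methods and the submitters' processing notes, the authors aligned reads to Sscrofa11.1 with Bowtie2 and called peaks in each sample with MACS2. Tool versions are not given in the sources used here. The deposited lists give each peak's fold enrichment over the control (a ratio), its significance as −log10 of the p-value and of the q-value, and an integer score. Fold enrichment, positions and summits were used, and −log10 q in alternatives only. The authors' stated q threshold was 0.01, but between 0.0565% (CTCF replicate 2) and 3.06% (both H3K27ac lists) of peaks lay above it, and none were removed.

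Peaks were joined over gaps of at most 12.5 kb. TSSs were taken from 28077 genes of the RefSeq annotation of Sscrofa11.1, 1 per gene, and nearest genes from its 19487 coding genes, so an unannotated promoter counts as distal. Depth behind peaks is unknown, wide peaks may be split differently between lists, and peak calling per sample sets which weak peaks enter. Sequences came from the RefSeq genome. The CTCF motif was learned from 600 peaks and scanned at p 0.0001 per position. Scripts used Python 3.11.15, numpy 2.4.6, pandas 2.3.3 and scipy 1.17.1, and were tested on simulated data.

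Named were the 10 longest clusters, the 10 highest by summed enrichment (mean of the replicates' ranks), the 5 with the most joined peaks, clusters whose nearest coding gene was in a list, and 3 regions on each side of 40 kb. Some items that this rule names are not reported here. Other genes (the ATG7, FURIN and CCNI edges, genes with several or distant clusters, chromosome X) were named after their values were seen. The clusters and gene lists were chosen with earlier results of these data known. Of the listed genes, 5 of 56 for matrix, 1 of 54 for growth factors and 1 of 50 for other cell types had no annotated match. No test was run, since there is 1 condition.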

Additional observations from a re-analysis of the deposited data

Results flagged for a closer look

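Outside chromosomes 1 to 18 and X, 485 H3K27ac peaks of replicate 1 had a replicate 2 partner, and joining them gave 15 regions of 40 kb or more, 1 of them on chromosome Y and the rest on unplaced scaffolds. The longest spanned 141 kb. They came to attention because these sequences were not used for the clusters. Peaks near a TSS were not removed there, so these regions are not comparable with the 974 clusters, and no control list was at hand to set beside them.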

How the results depend on the processing

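The number of clusters, 974, followed the limits of the joining rule. It was 632 with gaps of at most 10 kb, 1607 from 30 kb, 631 from 50 kb and 571 with H3K27ac peaks of a −log10 q of at least 5. With 1 H3K27ac replicate left out, so that no partner was asked for, it was between 1189 and 1300. The mean number of joined peaks, about 11, was 11.5 with gaps of 10 kb, 10.8 with 15 kb, 9.06 from 30 kb, 13.1 from 50 kb, 10.9 with every transcript start, 8.53 at the stricter q, 8.65 with 50% overlap of both peaks and 11.4 with replicate 2 peaks joined, and between 12.4 and 13.5 with a replicate left out. The share of nearest genes with H3K4me3, 81.2%, was in that order 79.8%, 82.3%, 82.6%, 81.6%, 82.8%, 81.7%, 79.5% and 82.1%, 81.6% with peaks over 5 kb from a TSS, and between 82.0% and 82.7% with a replicate left out, above the 68.9% of all coding genes throughout.

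CTCF at edges, 26.4%, was 23.8% with H3K27ac peaks over 5 kb from a TSS, 17.4% in a window of 2.5 kb, 43.2% in one of 10 kb and 23.6% with CTCF peaks that had a partner, and between 24.6% and 28.3% with a replicate left out. Shorter regions and single peaks were at 17.4% and 17.7% in the 2.5 kb window and at 41.3% and 37.7% in the 10 kb window, so that single peaks were lower only in the wider one. The share of clusters with H3K4me3, 94.4%, was 90.5% from 30 kb and 89.0% with H3K4me3 peaks of a −log10 q of at least 5, and between 92.0% and 96.7% with a replicate left out. Motifs pointing to a cluster, 58.2%, were 59.9% at a motif p of 0.00001 and between 57.4% and 59.0% with a CTCF replicate left out. Listed genes near a cluster, 88 of 276 (31.9%, against 10.5% of coding genes), were 67 (24.3%, against 6.14%) within 50 kb and 113 (40.9%, against 18.1%) within 200 kb. Of 75 alternatives, 43 moved a value by less than the spread between replicates, or a count by less than 1.5 times. Some of these outcomes were fixed by arithmetic, so the tally does not measure robustness. Leaving out a CTCF or H3K4me3 replicate always stays within the spread of these 2. Joining replicate 2 peaks always moves the number of peaks beyond it. The causes of the moves were not tested. No paired analysis was possible because no result came from a test.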

Other observations

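Neighbouring clusters were sometimes close. Of the 955 gaps between neighbours on a chromosome, 116 were under 50 kb and 174 under 100 kb, with a median of 1042 kb. Inside 635 clusters lay at least 1 further H3K27ac peak of replicate 1 that was near a TSS or had no partner and was not joined. The median was 7.0 coding TSSs within 500 kb of clusters, of shorter regions and of single peaks. Clusters of 100 kb or more had 2.09 and 2.64 CTCF summits per 100 kb in CTCF replicates 1 and 2, and those under 100 kb had 2.50 and 2.97.

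A peak list holds no depth, and no expression or contact data were used here, so the nearest gene is a position and not a target. Both H3K27ac replicates entered the choice of members, which leaves no independent measure of acetylation.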
